A study of Drosophila melanogaster with 17 samples.

Results

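The 72 genes described here were high in the same 5 of 17 libraries of RNA from fly heads and low or undetected in the other 12. They were chosen from measured values: a gene had to reach at least 2 TPM in each of the 5 libraries, and its lowest TPM over these 5 had to be at least 2 times its highest TPM over the other 12. TPM (a transcript's share of its library) is a level scaled for transcript length and library size. Whether amplification of the RNA changed levels between genes of different length was not tested. Of 13479 genes listed, 89 passed these limits (0.66%), and 17 of the 89 were set aside by symbol, because they belong to the families of Jon and Try proteases, heat shock proteins or cuticle proteins, or are the protease gene yip7. The remaining 72 are all protein coding, and 2 of them, whe and lcs, mark the set. Because the limits used every library, the levels of these genes, and every difference between TBI and sham built on them, are given as descriptions without a test.

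The study asked how glia respond to traumatic brain injury (TBI) in Drosophila melanogaster. In the dCHI assay (Drosophila closed head injury), a solenoid struck the head of a restrained, unanesthetized fly, and sham flies served as controls. TRAP-seq was then used, in which a GFP-tagged ribosomal protein (UAS-GFP::RpL10A) is expressed under repo-GAL4, a driver active in nearly all glia, and ribosome-bound RNA is pulled down from heads. All groups, sham included, carried these transgenes, were raised at 25 °C under a 12:12 light-dark cycle and were collected at ZT0, the time of lights-on. The groups were TBI day 1 (n = 3 libraries) and sham day 1 (n = 3), TBI day 3 (n = 3) and sham day 3 (n = 3), and TBI day 7 (n = 2) and sham day 7 (n = 3). The labels number these days 3, 6 and 10, and they give the flies as female while the methods of the study describe males. Each library came from heads sieved from frozen flies and pooled, so flies within a library are not replicates, and the RNA was amplified before sequencing. The study calls the replicates biological, without saying whether they came from separate cultures, and p-values measure only the spread between these libraries. In such bulk RNA, more cells of a type and more RNA per cell cannot be told apart.

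The 5 libraries were TBI day 1 replicates 1, 2 and 3, sham day 3 replicate 2 and TBI day 7 replicate 1. They therefore hold every TBI library of day 1, but also 1 of 3 sham libraries of day 3 and 1 of 2 TBI libraries of day 7. No gene showed the mirror image, with its highest TPM over the 5 at most 0.5 times its lowest over the other 12 at the same minimum.

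The adult fly midgut is a tube of absorptive enterocytes and scattered secretory cells that releases proteases, lipases and carbohydrate-cleaving enzymes into its lumen. A sheath of chitin and proteins, the peritrophic matrix, lies between the food and these cells, and several stretches of the midgut take up and store metals, sterols and vitamins. The midgut lies in the thorax and abdomen, whereas the head holds the brain, the eyes, fat body, muscle and the front of the foregut.

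In all 5 libraries the summed TPM of the set was far above that in the other 12. It was 7375, 5679 and 4024 TPM in TBI day 1 replicates 1, 2 and 3, 5874 TPM in sham day 3 replicate 2 and 3354 TPM in TBI day 7 replicate 1. The other 12 had 20.1 to 46.9 TPM (median 31.8). The lowest of the 5 sums was 71.5 times the highest of the 12. The set made up 0.399% to 0.874% of the listed TPM in the 5 libraries, against 0.00237% to 0.00555% in the 12. The genes CG34212, whe, lcs and CG43680 carried 60.02% to 76.8% of the sum in the 5 libraries, and without these 4 the sums were 955 to 1712 TPM, against 15.9 to 39.1 TPM in the 12. The 17 genes set aside by symbol summed to 684 to 1299 TPM in the 5 libraries, against 8.91 to 46.0 TPM in the 12. The sum of the 17 was highest in TBI day 7 replicate 1, where the sum of the 72 was lowest, but single genes weighed on both. The heat shock gene Hsp26 alone had 413 TPM in that library, against 110 to 173 TPM in the rest of the 5. Without its 4 most abundant genes, the set was lowest in TBI day 1 replicate 3 (955 TPM), against 1341 TPM in TBI day 7 replicate 1. More genes of any kind were also above 0 in the 5 libraries (10351 to 11350, against 9880 to 10670 in the 12), so these ranges overlap while the sums of the set do not.

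**Figure D1:**
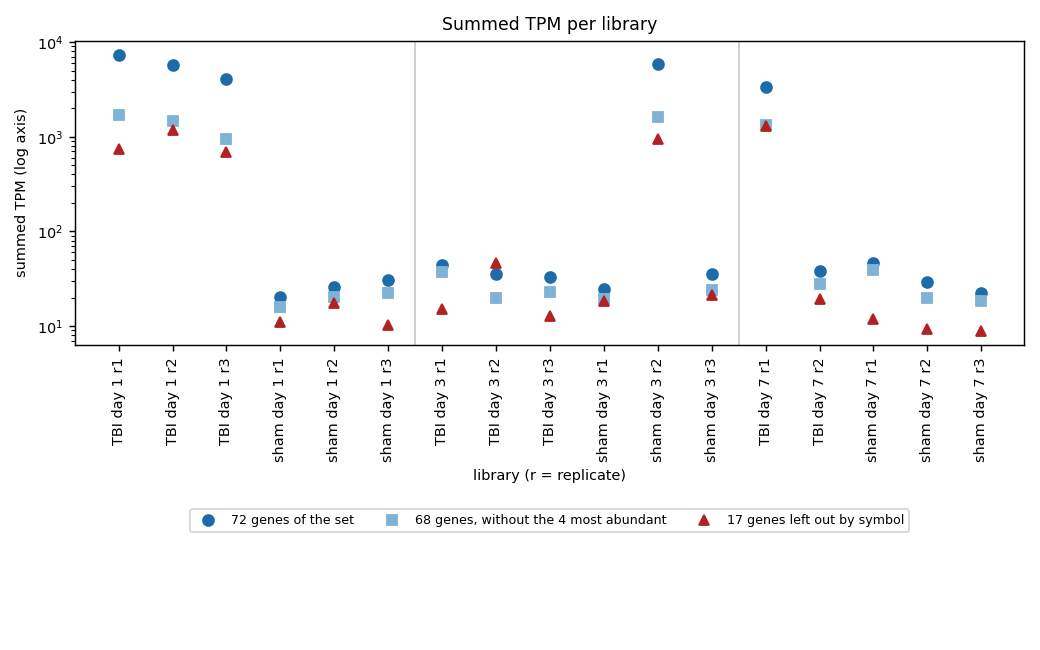
Summed TPM (log axis) in each of 17 libraries, grouped by day, for the 72 genes (circles), the 68 genes left without the 4 most abundant (squares) and the 17 genes set aside by symbol (triangles); each point is 1 library. TBI day 1 replicates 1 to 3, sham day 3 replicate 2 and TBI day 7 replicate 1 stand at 3354 TPM or more for the 72 genes, against at most 46.9 TPM elsewhere.

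The cell type lists put the midgut beside this pattern. A list of 28 midgut genes, which shares 15 with the 17 genes set aside, summed to 534 to 1001 TPM in the 5 libraries and 1.23 to 6.83 TPM in the 12. Of the 28, 19 were above all 12 in each of the 5, while Jon44E and Jon66Cii were at 0 throughout. This list overlaps the genes named in the rule by design and is no independent evidence. GATAe, a transcription factor of the midgut that was looked up after the levels had been seen, lay at 0.357 to 0.676 TPM in the 5 libraries, against 0 to 0.0750 TPM in the 12. The ranges of lists for cells expected in heads overlapped between the 5 libraries and the 12. The summed level of 9 glial genes was 2083 to 4396 TPM in the 5, against 2684 to 6219 TPM in the 12, that of 5 neuronal genes 623 to 913 against 567 to 1080 TPM, that of 8 photoreceptor genes 25686 to 43317 against 41179 to 58457 TPM, that of 8 fat body genes 9553 to 17411 against 9046 to 28810 TPM, that of 6 hemocyte genes 104 to 149 against 99.9 to 161 TPM and that of 7 muscle genes 845 to 1492 against 780 to 1726 TPM. The photoreceptor sum was nevertheless below all 12 in each TBI day 1 library, at 33778, 27414 and 25686 TPM in replicates 1 to 3. Most of it was ninaE, at 29368, 23907 and 22565 TPM. Only ninaE and Arr2 were below all 12 in each of these libraries. The other listed photoreceptor genes lay within the range of the 12 in TBI day 1 replicate 1. The part of midgut RNA in the set was not tested.

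Markers of other organs of the trunk were also looked at. Of 6 Malpighian tubule genes, the list sum overlapped (53.5 to 88.1 TPM in the 5, against 46.1 to 102 TPM in the 12). Yet 3 of these genes were above all 12 in each of the 5 libraries. Uro, urate oxidase, was at 0.333 to 1.10 TPM in the 5 libraries and at 0 in all 12. The gene salt had 0.458 to 11.7 TPM, against at most 0.0160 TPM, and NaPi-T 3.999 to 10.1 TPM, against at most 2.35 TPM. CapaR, Irk3 and Best2 overlapped between the 5 libraries and the 12, and Irk3 and Best2 were the most abundant of the list. The Hox gene abd-A, which is expressed in the abdomen, stood at 2.50, 1.69 and 0.884 TPM in TBI day 1 replicates 1 to 3, 0.921 TPM in sham day 3 replicate 2 and 2.07 TPM in TBI day 7 replicate 1, against at most 0.0565 TPM in the 12. The other genes of the trunk Hox list overlapped between the libraries: Antp had 8.76 to 16.4 TPM in the 5, against 4.11 to 12.2 TPM in the 12, Ubx 0.454 to 2.97 against 0.196 to 0.992 TPM and Abd-B 0.108 to 0.889 against 0 to 0.186 TPM. The sum of these 4 was 10.2 to 22.2 TPM in the 5, against 4.68 to 12.6 TPM in the 12. Of 4 Hox genes of the head (lab, pb, Dfd and Scr), the summed level was 9.91 to 19.5 TPM in the 5 and 11.9 to 24.6 TPM in the 12. The Hox genes were chosen after their values had been seen.

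Female germline genes split the 5 libraries. A list of 20 such genes, 18 of them listed and all chosen after a look at the values, summed to 28.7 TPM in TBI day 1 replicate 1, 874 TPM in replicate 2, 711 TPM in replicate 3, 839 TPM in sham day 3 replicate 2 and 2574 TPM in TBI day 7 replicate 1. The 12 had 16.0 to 27.1 TPM. Thus 4 of the 5 libraries stood far above the 12 and TBI day 1 replicate 1 just above them. The deadhead gene dhd, a thioredoxin of the egg, shows the gap: 1.06 TPM in TBI day 1 replicate 1, but 551 and 480 TPM in replicates 2 and 3, 558 TPM in sham day 3 replicate 2 and 1541 TPM in TBI day 7 replicate 1, with at most 1.21 TPM in the 12. A further list of 10 ovary genes, mainly of the eggshell, was low throughout, with its highest sums of 23.9 TPM in TBI day 1 replicate 3 and 8.78 TPM in TBI day 7 replicate 1, while the 12 had 1.64 to 4.30 TPM. The 9 genes of the male accessory gland summed to 11.7 TPM in TBI day 1 replicate 1 and 11.9 TPM in TBI day 7 replicate 1. The remaining 3 of the 5 had 0.0610 to 4.15 TPM and the 12 had 0.363 to 6.1 TPM.

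**Figure D2:**
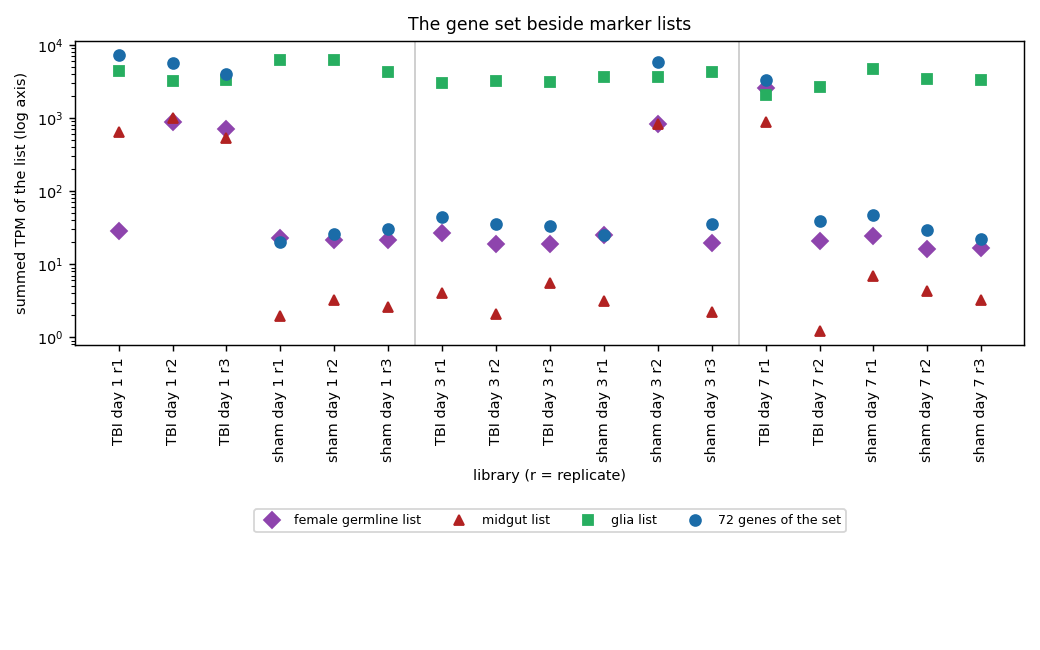
Summed TPM (log axis) of the 72 genes (circles), the midgut list (triangles), the female germline list (diamonds) and the glia list (squares) in each of 17 libraries, grouped by day. The sum of the midgut list is high in the same 5 libraries as the 72 genes. The germline list reaches 711 TPM or more in 4 of these libraries and 28.7 TPM in TBI day 1 replicate 1, and the glia list stays between 2083 and 6219 TPM.

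The leading genes were small and very abundant. CG34212, which encodes a predicted protein of 48 residues, had 2382, 1721 and 1504 TPM in TBI day 1 replicates 1 to 3, 1620 TPM in sham day 3 replicate 2 and 895 TPM in TBI day 7 replicate 1. The 12 had 0 to 6.29 TPM (median 2.46). The neighbouring CG34211 (50 residues) had 99.5, 62.3 and 31.0 TPM in TBI day 1, 169 TPM in sham day 3 replicate 2 and 29.97 TPM in TBI day 7 replicate 1, against at most 1.34 TPM. Both were thus far above the 12, but CG34211 peaked in the sham library and CG34212 in a TBI library. All exon bases of CG34211 lie under an annotated antisense gene, and whether reads were counted by strand is not stated, so its level is uncertain.

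The X-linked neighbours lcs and whe were next. On release 6 of the genome, lcs lies at chrX:21396727-21397316 and whe at chrX:21402339-21402772, both on the minus strand with 1 exon each, and their start sites are 5456 bases apart. Over the 5 libraries, whe averaged 1345 ± 559 TPM and lcs 486 ± 258 TPM (SD, n = 5), with at most 3.54 and 5.24 TPM in the 12. Neither has a role that is well described. Both had their lowest level of the 5 in TBI day 7 replicate 1, with 665 TPM for whe and 196 TPM for lcs, and lcs was almost as low in TBI day 1 replicate 3 (226 TPM). In the 12, lcs was above 0 in every library and whe was at 0 in 3.

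CG43680 and CG43679, 1926 bases apart on chromosome arm 3L, encode predicted proteins of 49 and 63 residues. CG43680 had 482, 367 and 445 TPM in TBI day 1 replicates 1 to 3, 366 TPM in sham day 3 replicate 2 and 256 TPM in TBI day 7 replicate 1, with at most 1.39 TPM in the 12. CG43679 had 79.6, 118 and 140 TPM in TBI day 1, 80.3 TPM in sham day 3 replicate 2 and 57.2 TPM in TBI day 7 replicate 1, with at most 1.95 TPM. These neighbours shared their lowest library but not their highest, which was TBI day 1 replicate 1 for CG43680 and replicate 3 for CG43679.

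Below these, levels were moderate. The mean TPM over the 5 libraries was 2.90 (mag) to 1625 (CG34212), with a median of 10.2 and quartiles of 6.75 and 26.0, and 38 of 72 genes averaged at least 10 TPM. Only 6 averaged at least 100 TPM. In the 12 libraries, 6 genes were at 0 throughout (Acbp5, Peritrophin-15a, CG7443, CG15422, Smvt and CG43774), 10 were above 0 in every library, and between 25 and 49 of the 72 were above 0 in any 1 library. For the 66 genes with a level in the 12, the lowest of the 5 was 2.11 to 188 times the highest of the 12 (median 9.58). The widest gaps were those of whe (188), CG43680 (185), CG34212 (142), CG6295 (113) and Mur18B (95.3), and 11 genes lay under 3.

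**Figure D3:**
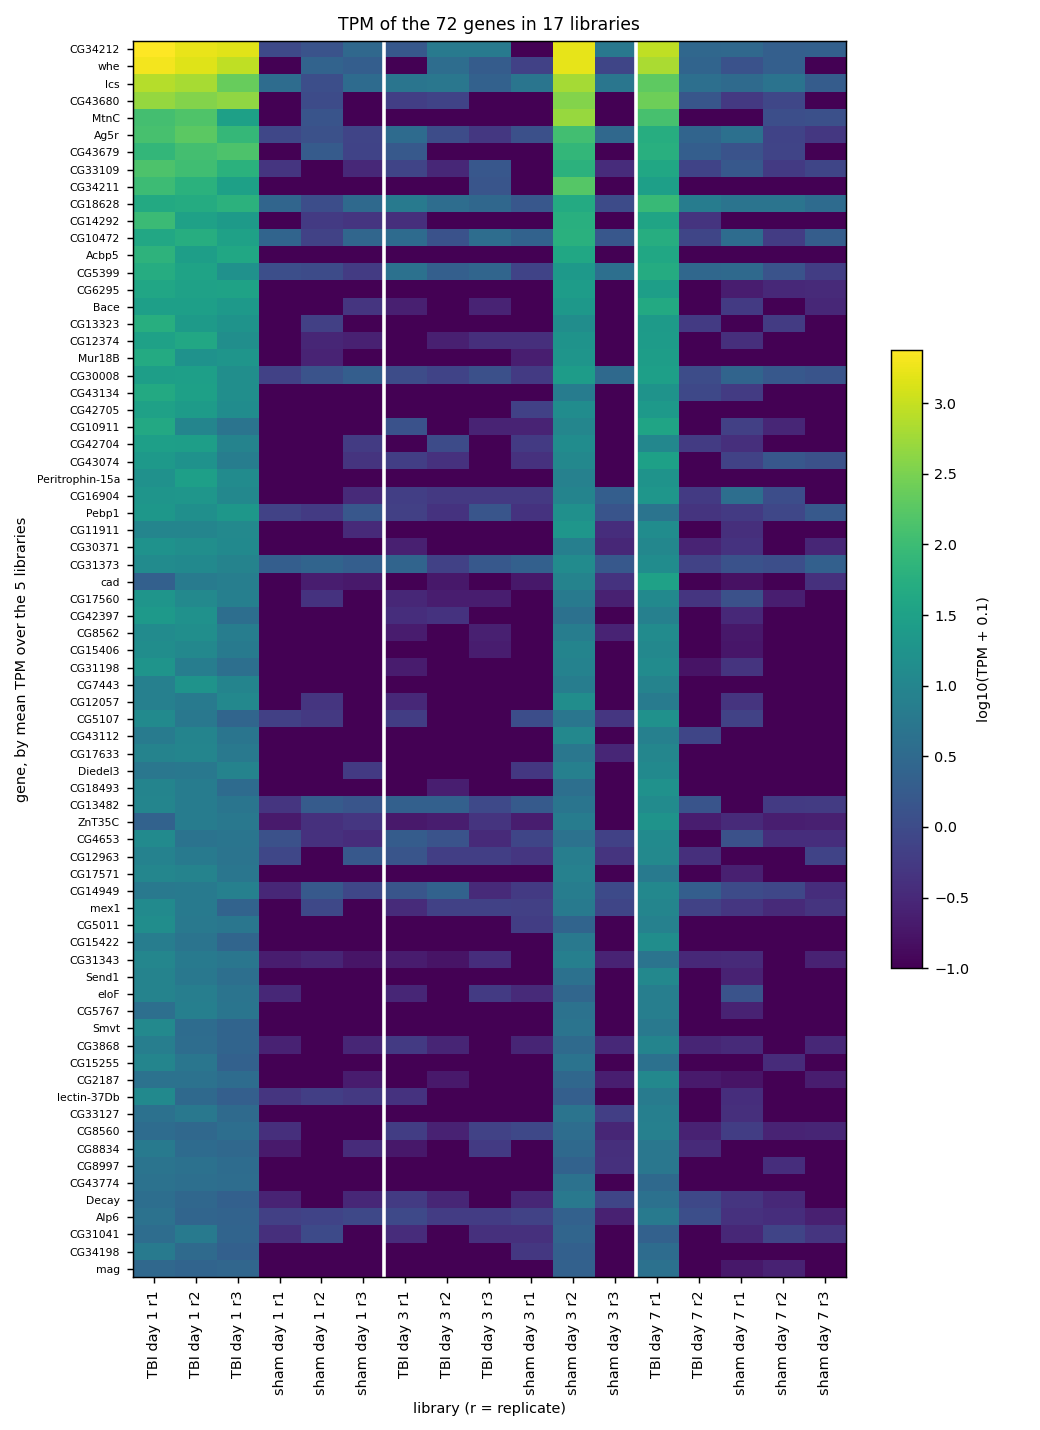
TPM of each of the 72 genes (rows, by mean over the 5 libraries) in each of 17 libraries (columns, by day, TBI left of sham) on a colour scale of log10(TPM + 0.1). TBI day 1 replicates 1 to 3, sham day 3 replicate 2 and TBI day 7 replicate 1 form bright columns, and between 25 and 49 of the 72 genes are above 0 in any 1 of the other 12.

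Metal handling gave the most uneven gene. Metallothioneins are small cysteine-rich proteins that bind copper and zinc, and MtnC (43 residues, the shortest protein of the set) had 116, 149 and 30.3 TPM in TBI day 1 replicates 1 to 3, 506 TPM in sham day 3 replicate 2 and 127 TPM in TBI day 7 replicate 1. Its highest level was thus in a sham library, 5.14 times the TBI day 1 mean, and its range over the 5 was 16.7-fold, the widest of the 72. In the 12 it was at 0 in 9 and at most 1.25 TPM. Its relative MtnB failed the limit, with a lowest level of the 5 at 1.71 times the highest of the 12. ZnT35C, a zinc transporter, had 2.26, 6.87 and 5.61 TPM in TBI day 1, 6.75 TPM in sham day 3 replicate 2 and 17.6 TPM in TBI day 7 replicate 1, against at most 0.389 TPM.

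Lipid and vitamin genes were also present. Acbp5, which belongs to the acyl-CoA binding proteins, had 67.6, 28.0 and 40.6 TPM in TBI day 1 replicates 1 to 3, 40.7 TPM in sham day 3 replicate 2 and 39.7 TPM in TBI day 7 replicate 1 and was listed at 0 in all 12. Smvt, annotated as a sodium-dependent multivitamin transporter, had 11.6, 3.37 and 2.49 TPM, 4.82 TPM and 5.77 TPM in the same order of libraries and was also at 0 in all 12. CG2187, which RefSeq lists with the synonym dSLC5A6 and which lies next to Smvt, had 4.37, 4.35 and 3.38 TPM in TBI day 1, 2.77 TPM in sham day 3 replicate 2 and 10.8 TPM in TBI day 7 replicate 1. These transporters thus differed in their highest library. The next gene on that chromosome, salt, failed the minimum of 2 TPM in TBI day 1 replicates 2 and 3, with 0.720 and 0.458 TPM, but had 11.7 TPM in replicate 1, 4.14 TPM in sham day 3 replicate 2 and 11.01 TPM in TBI day 7 replicate 1, against at most 0.0160 TPM in the 12. Pebp1, a phosphatidylethanolamine-binding protein, was the gene farthest below TBI day 1 in TBI day 7 replicate 1, with 4.75 TPM against 14.8 to 20.6 TPM in the 3 TBI day 1 libraries.

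Digestive enzymes other than serine proteases included Bace and mag. Bace, an aspartic protease, had 29.9, 29.7 and 23.1 TPM in TBI day 1 replicates 1 to 3, 21.7 TPM in sham day 3 replicate 2 and 46.3 TPM in TBI day 7 replicate 1, against at most 0.464 TPM. The lipase gene mag (magro), which acts in sterol and fat digestion, was the least abundant of the set at 2.15 to 4.22 TPM, against at most 0.159 TPM. Among 33 listed genes for digestive carbohydrate enzymes, lysozymes and lipid enzymes, Bace and mag were the members, and 7 genes passed the fold limit at any level. Of all 13479 listed genes, 89 passed both limits and a further 86 the fold limit alone. The sum of the list overlapped, at 1142 to 1576 TPM in the 5 libraries and 1274 to 1584 TPM in the 12. While 11 of the 33 were above all 12 in all 5, others overlapped, such as Amy-d (4.30 to 16.7 TPM, against 3.54 to 22.0 TPM). The maltases Mal-A1 and Mal-B1 were above all 12 in all 5 but failed the limit, with 2.56 to 18.3 TPM against at most 2.12 TPM for Mal-A1 and 4.72 to 10.6 TPM against at most 3.79 TPM for Mal-B1. LysP, a lysozyme, was past the fold limit at 1.69 to 15.1 TPM against at most 0.358 TPM, but below the minimum of 2 TPM in TBI day 1 replicates 1 and 3.

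Serine proteases outside the families set aside numbered 7 by their RefSeq synonyms, CG10472, CG11911, CG17571, CG30371, CG33127, CG4653 and Send1, of which CG33127 and CG4653 are listed as homologs (SPH) and not as proteases. Their sum was 72.1 to 114 TPM in the 5 libraries, against 0.779 to 5.78 TPM in the 12. CG10472 led with 42.0, 53.5 and 31.9 TPM in TBI day 1 replicates 1 to 3, 59.7 TPM in sham day 3 replicate 2 and 53.7 TPM in TBI day 7 replicate 1, one of the narrowest ranges of the set. Send1 is named for the spermatheca, a sperm storage organ, and had 9.03, 5.50 and 3.91 TPM in TBI day 1, 4.12 TPM in sham day 3 replicate 2 and 10.9 TPM in TBI day 7 replicate 1, against at most 0.162 TPM.

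Genes of the gut lining and secreted proteins followed. Peritrophin-15a, a chitin-binding protein of the peritrophic matrix, had 16.5, 29.1 and 12.9 TPM in TBI day 1 replicates 1 to 3, 8.17 TPM in sham day 3 replicate 2 and 17.8 TPM in TBI day 7 replicate 1 and was listed at 0 in all 12. The mucin-related Mur18B had 47.0, 16.8 and 18.8 TPM, 19.2 TPM and 27.3 TPM in these libraries, against at most 0.176 TPM. Both were thus at or near 0 outside the 5. These were the only members among 17 listed genes for the peritrophic matrix and mucins, of which 3 passed the fold limit at any level. Of all 13479 listed genes, 89 passed both limits and a further 86 the fold limit alone. The sum of the 17 overlapped, at 57.8 to 132 TPM in the 5 libraries and 28.5 to 90.7 TPM in the 12. Ag5r, a secreted antigen 5-related protein, had 126, 186 and 81.8 TPM in TBI day 1, 111 TPM in sham day 3 replicate 2 and 53.4 TPM in TBI day 7 replicate 1, against at most 4.03 TPM. Its relative Ag5r2 also passed the fold limit but lay at 0.946 to 2.87 TPM, against at most 0.265 TPM.

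The 1 transcription factor of the set was cad (caudal), a homeobox protein that patterns the posterior embryo, to which it is also supplied by the mother, and acts in the adult gut. It had 2.08, 6.48 and 7.40 TPM in TBI day 1 replicates 1 to 3, 9.07 TPM in sham day 3 replicate 2 and 32.1 TPM in TBI day 7 replicate 1, against at most 0.332 TPM. Its lowest and highest libraries were those of the female germline list, and its 15.4-fold range was exceeded only by MtnC among the 72. The part of germline RNA in its level was not tested. In TBI day 1 replicate 1, where the germline list was 28.7 TPM, cad had 2.08 TPM. The rule required it to be above all 12 there, so nothing is read from that. ZnT35C shared its lowest and highest library with cad.

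Among the remaining named genes, mex1 (midgut expression 1) had 12.5, 5.95 and 2.33 TPM in TBI day 1 replicates 1 to 3, 6.23 TPM in sham day 3 replicate 2 and 9.54 TPM in TBI day 7 replicate 1, against at most 0.795 TPM. Low levels were also found for eloF, a fatty acid elongase of hydrocarbon synthesis in females (2.70 to 8.87 TPM, against at most 1.21 TPM), Decay, a caspase (2.09 to 5.78 TPM, against at most 0.799 TPM), Diedel3 (5.29 to 11.7 TPM, against at most 0.452 TPM) and lectin-37Db, a C-type lectin (2.02 to 11.9 TPM, against at most 0.551 TPM). Alp6, an alkaline phosphatase, was the gene nearest to the fold limit and lies wholly under an antisense gene, which makes its level uncertain. An antisense gene also covers 37.2% of the exon bases of CG15255 and 7.95% of those of Ag5r. A further 45 of the 72 carry a CG number only, and no role is given for them here.

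The limits placed some genes narrowly. Just inside the fold limit were Alp6 (2.11), eloF (2.23), CG13482 (2.35), CG4653 (2.46) and CG14949 (2.55), and just outside were Hsp27 (1.87), CG6660 (1.73), MtnB (1.71), NaPi-T (1.70) and CG42833 (1.59). At the minimum level, lectin-37Db (2.02), cad (2.08), Decay (2.09), CG34198 (2.09) and mag (2.15 TPM) were inside, and CG7916 (1.95), hiro (1.91), Alp5 (1.86), CG13947 (1.86) and CG30479 (1.84 TPM) outside. A further 86 genes passed the fold limit with a lowest level of the 5 under 2 TPM, which was at least 1 TPM for 29 of them.

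**Figure D4:**
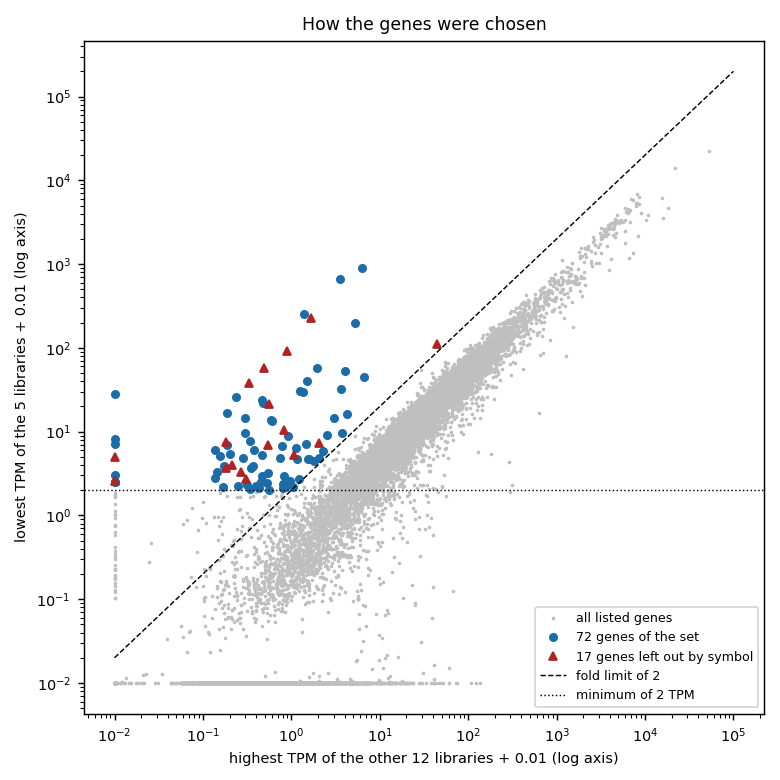
For every listed gene (grey), the lowest TPM of the 5 libraries against the highest TPM of the other 12, both with 0.01 added and on log axes. The dashed line is the fold limit of 2 and the dotted line the minimum of 2 TPM; the 72 genes (circles) and the 17 set aside by symbol (triangles) lie above both, and 6 of the 72 stand at the left edge with 0 in all 12.

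The order of the 72 levels was similar from library to library. Across the 72 genes, which are not independent, the correlation of log2 TPM between any pair of the 5 libraries was 0.870 to 0.952, and 0.746 to 0.908 without the 4 most abundant genes. The size of the levels was not fixed. The ratio of highest to lowest TPM over the 5 libraries was 1.46 to 16.7 (median 2.81). It was narrowest for CG43774 (1.46), CG31373 (1.46), CG6295 (1.48), CG10472 (1.87) and CG14949 (1.88). The widest after MtnC and cad were CG10911 (9.29), ZnT35C (7.79) and CG43134 (6.73).

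TBI day 1 replicate 1 held the highest level for 32 of the 72 genes and TBI day 7 replicate 1 for 23. Replicate 2 of TBI day 1 was highest for 8, sham day 3 replicate 2 for 7 and replicate 3 of TBI day 1 for 2. TBI day 1 replicate 3 was lowest for 29 and exceeded by replicate 1 for 60 of the 72.

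TBI day 7 replicate 1 was compared with the 3 TBI day 1 libraries gene by gene. It was above all 3 TBI day 1 libraries for 26 genes, below all 3 for 14 and within their range for 32. Of the 10 most abundant genes, 8 were below all 3, but of the 20 most abundant only 9 were. Among the 38 genes of at least 10 TPM, 8 were above and 11 below, and of the 34 genes under 10 TPM, 18 were above and 3 below. Abundance is the mean over the 5 libraries, 3 of them TBI day 1, so the ranking itself favours genes high in TBI day 1. Its median ratio to the TBI day 1 mean was 1.15 over the 72 genes and 1.14 over the 17 set aside. The extremes were cad (6.03), ZnT35C (3.59) and CG15422 (2.84) at the upper end and Pebp1 (0.255), lcs (0.361) and CG33109 (0.384) at the lower end. For sham day 3 replicate 2, 8 genes were above all 3 TBI day 1 libraries, 21 below and 43 within, and the median ratio was 0.791 over the 72 genes and 1.06 over the 17. The rule required each of the 72 to be high in this sham library, so nothing about injury is read from their presence there.

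**Figure D5:**
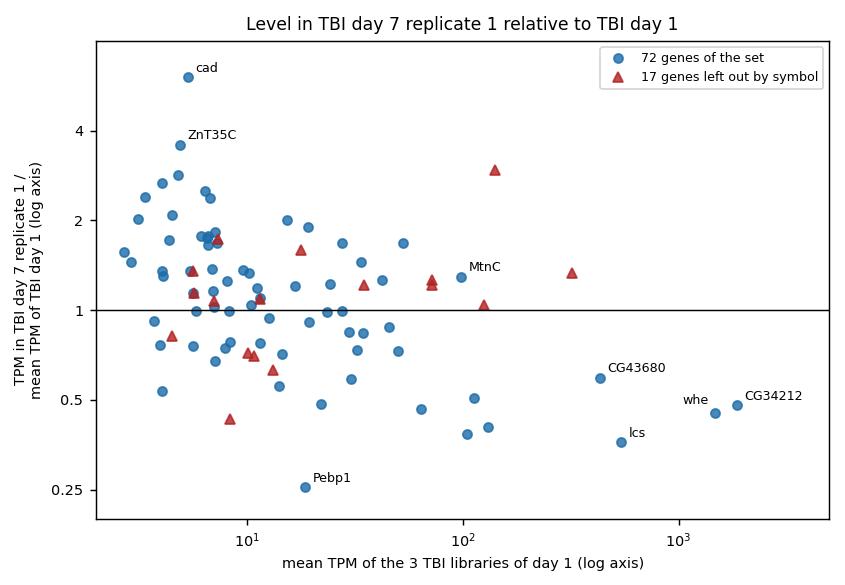
TPM in TBI day 7 replicate 1 divided by the mean of the 3 TBI day 1 libraries, against that mean (both log axes), for the 72 genes (circles) and the 17 set aside by symbol (triangles); the line marks a ratio of 1. The most abundant genes, CG34212, whe, lcs and CG43680, lie below the line, and cad stands highest at 6.03.

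On day 1, TBI over sham, limma called 346 of 12085 genes, 2.86% of those tested, (limits: 0.6 on the log2 scale for the difference and 0.1 for the p adjusted over all genes), and 265 of them, 2.19%, were higher. Of the 72 genes, 65 were called, all higher. The rule used these libraries, so nothing is read from this count. For all 72, every TBI library lay above every sham library, as it did for 10.1% of the genes tested, and this too was fixed by the rule. The log2 fold changes, on the scale of log2(TPM + 1), were 1.27 to 9.51, with a median of 3.17 over the 72 genes and 0.02 over all genes tested. For whe, the mean was 1469 ± 570 TPM in TBI day 1 and 1.44 ± 1.27 TPM in sham day 1 (SD, n = 3 each). MtnC averaged 98.4 ± 61.3 TPM in TBI day 1 and 0.417 ± 0.723 TPM in sham day 1. With any 1 of the 6 libraries left out, no gene of the whole table was called by limma (1220 to 1916 had an unadjusted p under 0.05), and the median over the 72 was 2.98 to 3.40.

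Of the fixed lists, on day 1 limma called 16 of 25 midgut genes tested as higher in TBI and none lower, 5 of 32 digestive carbohydrate, lysozyme and lipid genes higher and 1 lower, 3 of 16 peritrophic matrix and mucin genes higher, 1 of 5 antigen 5-related genes, 1 of 6 Malpighian tubule genes and 1 of 9 ovary genes higher, against 2.19% of all genes tested. The rule used these libraries, and 15 of the midgut genes as well as Bace, mag, Peritrophin-15a, Mur18B and Ag5r had passed its limits, so nothing is read from these counts. Of the 9 glial genes 2 were called lower and none higher, where limma called 81 of all 12085 genes tested lower. These calls too were lost with any 1 of the 6 libraries left out, so nothing is read from them. None of the 18 female germline genes was called, with a median log2 fold change of 2.25 and TBI day 1 replicate 1 apart from replicates 2 and 3.

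On day 3 limma called none of the 72 and 0 (0%) of 11835 genes tested, of which 688 had an unadjusted p under 0.05. The median log2 fold change of the 72 was -0.99, against 0.03 over all genes, and 1 of 72 was positive. No gene of the set had every TBI library above every sham library, against 4.35% of all genes. This was fixed by the rule, which placed sham day 3 replicate 2 above every TBI library of day 3. Nothing is read from it. The sign rested on sham day 3 replicate 2. Without that library 56 of the 72 were still above 0 and tested, 33 of the 56 were higher in TBI and their median was 0.08.

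On day 7 it again called none of the 72 and 0 (0%) of 11966 genes tested, of which 504 had an unadjusted p under 0.05. All 72 had a positive log2 fold change, with a median of 1.79 (0.34 to 4.69), against 0.23 over all genes. In 14 of the 72, both TBI libraries lay above all 3 sham libraries, against 15.1% of all genes. Among the 14 were whe, mex1, CG43680 and CG18628. The rule had already placed TBI day 7 replicate 1 above every sham library for all 72, so only TBI day 7 replicate 2 was free. At an unadjusted p under 0.05 in the higher direction there were 5 of the 72 (Alp6, CG13482, CG14949, CG43112 and Decay), against 3.79% of all genes. Nothing is read from the sign or from these counts, since they use a library of the rule. The sign again rested on 1 library, TBI day 7 replicate 1. Without it 58 genes were tested, 25 of them were higher in TBI and the median was -0.06. Without TBI day 7 replicate 2 instead, the median was 3.49, and 1375 genes of the whole table were called, 67 of the 72 among them. That fit has 1 TBI library, which the rule used and which is assumed to vary like the sham libraries, so nothing is read from the count.

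As a group, the 72 genes differed from all listed protein-coding genes in features that the rule had not used directly, although the TPM it used is scaled by transcript length. Their proteins were short, with a median of 253.5 residues against 392 for all listed protein-coding genes, and 23 of 72 (31.9%) were under 150 residues, against 13.4%. A single exon was annotated for 31.9% of the 72, against 16.4%, and at most 2 exons for 65.3%, against 38.6%. The longest protein, that of CG31343, has 961 residues. No test was made of these shares.

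Some of the genes were neighbours, and the share of such neighbours expected for other genes was not computed. Within 20 kb, 22 of the 72 lay next to another of the set, in 11 pairs: CG11911 and CG33127, CG15422 and CG43774, CG34211 and CG34212, CG5767 and CG10911, CG8562 and CG8560, CG43679 and CG43680, eloF and CG16904, CG31343 and CG31198, CG2187 and Smvt, CG42704 and CG42705, and lcs and whe. The closest start sites were 853 bases apart (CG11911 and CG33127) and the farthest 9058 bases (CG31343 and CG31198). Of 32 other listed genes in or within 5 kb of these pairs, 6 also passed the fold limit but had their lowest level under 2 TPM. These were CG34176, CG10912, CG43678, CG9459, CG31233 and salt. The same held for 86 of all 13479 listed genes. Others next to the pairs did not: rumpel, beside CG42704 and CG42705, had 46.6 TPM in the lowest of the 5 libraries, against 113 TPM in the highest of the 12. Across chromosome arms, 16 of the 72 lay on 2L, 13 on 2R, 14 on 3L, 19 on 3R and 10 on X, in shares (22.2%, 18.1%, 19.4%, 26.4% and 13.9%) near those of all protein-coding genes (19.1%, 20.2%, 20.04%, 24.4% and 15.6%).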

How the data were processed

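The deposited table holds TPM of 13479 genes in 17 libraries. The authors obtained it from 50-base single-end reads with Kallisto (version not given in the sources used here) against FlyBase transcripts (release 6.14, with 6.10 named elsewhere in the methods) and summed transcripts to genes with tximport. They removed TBI day 7 replicate 3. TPM holds no depth, so replicates are the only measure of precision, and counts were not analysed here. The listed genes add up to 832800 to 854953 TPM per library.

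The set of genes, its limits and the lists were chosen with earlier results of these data known. Named genes are whe and lcs, the 20 most abundant, the 5 with the widest and narrowest range, those at the limits, neighbours and members of the lists. Groups are given by day after injury. Symbols were found for 13128 identifiers in the reference table, and coordinates, exons and protein lengths come from Ensembl annotation release 115 (assembly release 6). No sequence is printed.

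TBI and sham libraries of a day were compared in limma 3.58.1 (R 4.3.3) on log2(TPM + 1) with moderated variances. Genes at 0 TPM in every library of the day were left out. Days 1 and 3 were fitted with the replicate number as a block and day 7 without it, and Benjamini-Hochberg adjustment covered all genes tested. The code was tested on simulated data. Over 8766 genes, deviations of same-numbered TBI and sham libraries were correlated at 0.376, 0.00423 and 0.216 on day 1. The correlations were 0.451, 0.143 and -0.0291 on day 3 and 0.224 and 0.124 on day 7. Libraries of different number were not compared, so this check cannot decide whether the numbers are pairs. The block on days 1 and 3 follows the study's correction for replicates and not this check. On day 7, where sham replicate 3 has no TBI partner, the block was run as an alternative.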

Additional observations from a re-analysis of the deposited data

How the results depend on the processing

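The number of genes in the set was 72 and became 38 at a minimum of 5 TPM. Leaving out 1 library gave 72 to 189 (189 without TBI day 1 replicate 1), and by the form of the rule it can only add genes. The mirror image, tried after seeing the data, gave 0. On day 1 the 346 calls became 684 among genes of at least 1 TPM on average, 165 in one fit of all 17 libraries (11 of the 72 called) and 0 to 0 with a library left out. With a block for replicate numbers, leaving out a library also removes the weight of its same-numbered partner. Without the replicate block, day 1 had 361 calls, 70 of the 72 among them, and day 3 had 1. With the replicate block, day 7 had 0 calls and a median of 1.74 over the set. The day 1 median of the set was 5.90 with a pseudocount of 0.1. Day 3 had 3 calls among genes of at least 1 TPM on average, and 0 to 0 with a library left out. Day 7 had 2 such calls, 8 in one fit of all libraries, and 0 to 1375 with a library left out (85 without TBI day 7 replicate 1). Medians over the set with a library left out were 2.98 to 3.40 on day 1, -1.56 to 0.08 on day 3 and -0.06 to 3.49 on day 7. The median log2 ratio of the 5 libraries over the other 12 was 6.82 from means (66 genes) and 4.80 from medians (33 genes). Within 5 kb, 14 genes had a neighbour in the set. Over 12 alternatives on day 1, 864 values of the 72 genes gave 445 lost calls, 18 gained calls and no change of direction. Of the lost calls, 65 fell in each fit with 1 library left out, where no gene of the whole table was called. Another 54 fell in the one fit of all 17 libraries and 1 with the pseudocount of 0.1. The cause of these shifts was not tested. The promoter motif window was not run, since no promoter sequence was used here. TPM keeps no depth, so limits of detection are unknown.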

Other observations

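Without TBI day 1 replicate 1, and after seeing the data, the same limits over the remaining 4 high libraries admitted 117 further genes. Among them were genes of oogenesis and of cell division. The ribosomal protein gene RpS5b, enriched in the germline, had 0.695 TPM in TBI day 1 replicate 1, but 284 and 218 TPM in replicates 2 and 3, 215 TPM in sham day 3 replicate 2 and 396 TPM in TBI day 7 replicate 1. Its highest level in the 12 was 2.91 TPM. The mitotic cyclin CycB had 0.689 TPM in TBI day 1 replicate 1, but 57.2 and 37.8 TPM in replicates 2 and 3, 66.1 TPM in sham day 3 replicate 2 and 268 TPM in TBI day 7 replicate 1, with at most 1.23 TPM in the 12. The oogenesis genes gnu, mtrm, exu and alphaTub67C, and yl, the yolk protein receptor, showed the same split, each with its highest level in TBI day 7 replicate 1, and 14 of the 117 are in the germline list. In TBI day 1 replicate 1, 97 of the 117 were at or below the highest of the 12 libraries and 22 were listed at 0. Several histone genes among them have near-identical copies, so reads may be split between copies.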
